A study of Mus musculus with 4 samples.

Results

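Accessible chromatin of EpRas cells given siRNAs against Etv4 and Etv5 together with TGF-β was compared with that of untreated EpRas cells given a control siRNA. EpRas is a mouse mammary gland epithelial cell line with active H-Ras expression, so the oncogene was present in every group. FAIRE-seq (sequencing of formaldehyde-assisted isolates of regulatory elements, the DNA that is not held by crosslinked protein) gave 1 list of FAIRE-positive regions, or peaks, for each of 4 groups. The untreated group was transfected with the control siRNA (siControl) and had no TGF-β. The siEtv4/5 set 1 and siEtv4/5 set 2 groups had 2 different pairs of siRNAs against Etv4 and Etv5 and received TGF-β3 at 1 ng/ml, and a siControl group with the same TGF-β (TGF-β siControl) was read beside them. All cells were taken after 4 days. None of the 4 groups had siEtv4/5 without TGF-β, so in the comparison below what TGF-β did and what the knockdown did cannot be told apart. The lists hold no RNA levels, so they do not show how far Etv4 and Etv5 were silenced.

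A region was called opened where both siEtv4/5 lists held a peak and the untreated list held none, closed where the untreated list held a peak and neither siEtv4/5 list did, and shared where all 3 lists held one, with an overlap of 1 bp enough. Each list was first cut to its 14925 strongest peaks by −log10 q-value, which is the length of the set 2 list. The 3 cut lists gave 23104 regions, of which 2370 (10.3%) were opened, 3426 (14.8%) were closed and 7713 were shared. There was 1 list for each group and no replicate of it, so none of the differences between lists could be set against a spread between replicates, and no test was made. Ranges in parentheses after a share are 95% Wilson intervals, which cover counting error only.

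TGF-β drives epithelial cells into epithelial-mesenchymal transition (EMT), in which junction proteins such as E-cadherin are lost and matrix and cytoskeletal proteins are gained. Its receptors act through Smad factors, which bind DNA with partners such as AP-1, the Fos and Jun dimers that respond to Ras and growth factor signals. Etv4 and Etv5 are ETS family factors of the PEA3 group that act downstream of Ras and ERK signalling, and CTCF is a zinc finger factor that marks insulators and the anchors of chromatin loops.

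The strongest regions that were absent from the other side's full list are shown first, since they are the clearest members of each class, and since the classes differed in how often such a motif was found. The sequences are from the plus strand of GRCm38 (mm10). Capitals mark matches to AP-1 (TGANTCA), ETS (CCGGAA) or CTCF (CNAGGNGGC), each searched on both strands. The opened regions lay in introns, at chr11:101211982-101212150 near Ezh1 (a histone H3 lysine methyltransferase), at chr4:128793773-128793981 near the start of Zfp362, and at chr7:34213361-34213578 with Pdcd2l as the nearest protein-coding start.
opened near Ezh1: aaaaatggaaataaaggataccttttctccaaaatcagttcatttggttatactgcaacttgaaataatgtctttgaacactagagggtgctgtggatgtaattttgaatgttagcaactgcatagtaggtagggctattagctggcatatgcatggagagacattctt
opened near Zfp362: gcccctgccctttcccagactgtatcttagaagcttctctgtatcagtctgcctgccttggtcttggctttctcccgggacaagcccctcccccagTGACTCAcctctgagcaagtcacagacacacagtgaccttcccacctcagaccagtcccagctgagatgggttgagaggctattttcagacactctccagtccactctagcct
opened near Pdcd2l: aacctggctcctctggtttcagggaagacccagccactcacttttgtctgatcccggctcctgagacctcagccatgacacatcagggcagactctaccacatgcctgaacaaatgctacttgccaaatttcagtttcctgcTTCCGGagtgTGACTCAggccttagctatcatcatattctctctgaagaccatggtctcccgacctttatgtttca
The closed regions also lay in introns, at chr2:77709372-77709546 near Zfp385b, at chr17:84010613-84010791 with Haao as the nearest protein-coding start, and at chr1:54832857-54833024 near Ankrd44.
closed near Zfp385b: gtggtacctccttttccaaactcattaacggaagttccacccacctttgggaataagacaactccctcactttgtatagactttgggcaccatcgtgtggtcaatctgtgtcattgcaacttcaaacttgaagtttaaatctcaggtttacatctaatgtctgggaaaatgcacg
closed near Haao: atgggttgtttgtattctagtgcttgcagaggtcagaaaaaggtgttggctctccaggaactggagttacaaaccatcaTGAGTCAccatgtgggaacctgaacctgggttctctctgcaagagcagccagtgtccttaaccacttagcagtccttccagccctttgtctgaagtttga
closed near Ankrd44: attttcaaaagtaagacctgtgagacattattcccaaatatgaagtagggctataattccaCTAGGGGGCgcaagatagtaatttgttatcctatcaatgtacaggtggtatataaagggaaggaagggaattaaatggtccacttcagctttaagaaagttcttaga
An AP-1 match stood in 2 of the 3 opened sequences and in 1 of the 3 closed ones, and a CTCF match in 1 closed sequence.

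The siRNA of set 2 that was made to order is the only siRNA whose letters were used here. It reads as follows.
custom siRNA of set 2: UUAAAUUCCAUGCCUCGGCCAGUCC
As written it matched the plus strand of mm10 at chr16:22392674-22392698. This stretch lies in a coding exon of Etv5, which is on the minus strand, so the printed strand is complementary to the Etv5 mRNA. It lay in the coding sequence of 2 annotated transcripts and in no untranslated region.

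The full lists held 22247 peaks in untreated siControl, 28754 in TGF-β siControl, 22516 with set 1 and 14925 with set 2. The estimated depth was 15.3, 16.3, 17.3 and 20.7 M reads in the same order, so the shortest list came from the deepest library. The weakest peak kept had a −log10 q-value of 11.3 in the untreated list, 11.5 with set 1 and 14.7 in TGF-β siControl. It was 4.52 with set 2, whose list was used whole. A TGF-β siControl peak below the length limit can therefore hold as many fragments as a kept set 2 peak. At the Vim promoter these were 24 and 22 fragments. Peaks stood at 7 of the 8 mammary epithelial marker genes in the untreated list, in TGF-β siControl and with set 1, and at 5 with set 2. They stood at 1 of 9 markers of blood, muscle, neural, liver and endothelial cells in each list, which was Pecam1. Peak numbers at the epithelial markers moved both ways. Epcam, an epithelial adhesion gene, had a peak in the untreated list alone, and Cdh1 had 4 there and 1 in each other list. Krt19 had 1 in TGF-β siControl and 1 with set 1, and none in the other lists. Cldn4 had 1 untreated, 4 in TGF-β siControl, 3 with set 1 and 2 with set 2.

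Both siEtv4/5 libraries also differed from both siControl libraries in signal over whole chromosomes. At regions called in all 4 full lists, the number of fragments at the summit, scaled to depth and centred, was higher on chromosome 14 than in the untreated library by a median log2 ratio of 0.13 with set 1 and 0.20 with set 2, against -0.02 in TGF-β siControl. The local background around the same peaks moved with it, with log2 ratios of 0.15, 0.22 and -0.01 in the same order. On chromosome 12 the summit ratios were 0.08 with set 1, 0.17 with set 2 and 0.01 in TGF-β siControl. On chromosome 4 they were -0.12 with either set and 0.01 in TGF-β siControl. On the other 16 autosomes the medians lay between -0.05 and 0.07 with set 1 and between -0.08 and 0.05 with set 2. Chromosome 14 had the highest share of opened regions, 18.8%, and the lowest share of closed ones, 9.39%, among the 20 chromosomes with enough regions. On the other 19 the opened share ran from 8.05% to 13.3% and the closed share from 10.7% to 18.8%. Without chromosomes 4, 12 and 14 there were 2031 opened and 3030 closed regions, of which the equal-length siControl list with TGF-β held 60.4% and did not hold 73.9%.

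**Figure D1:**
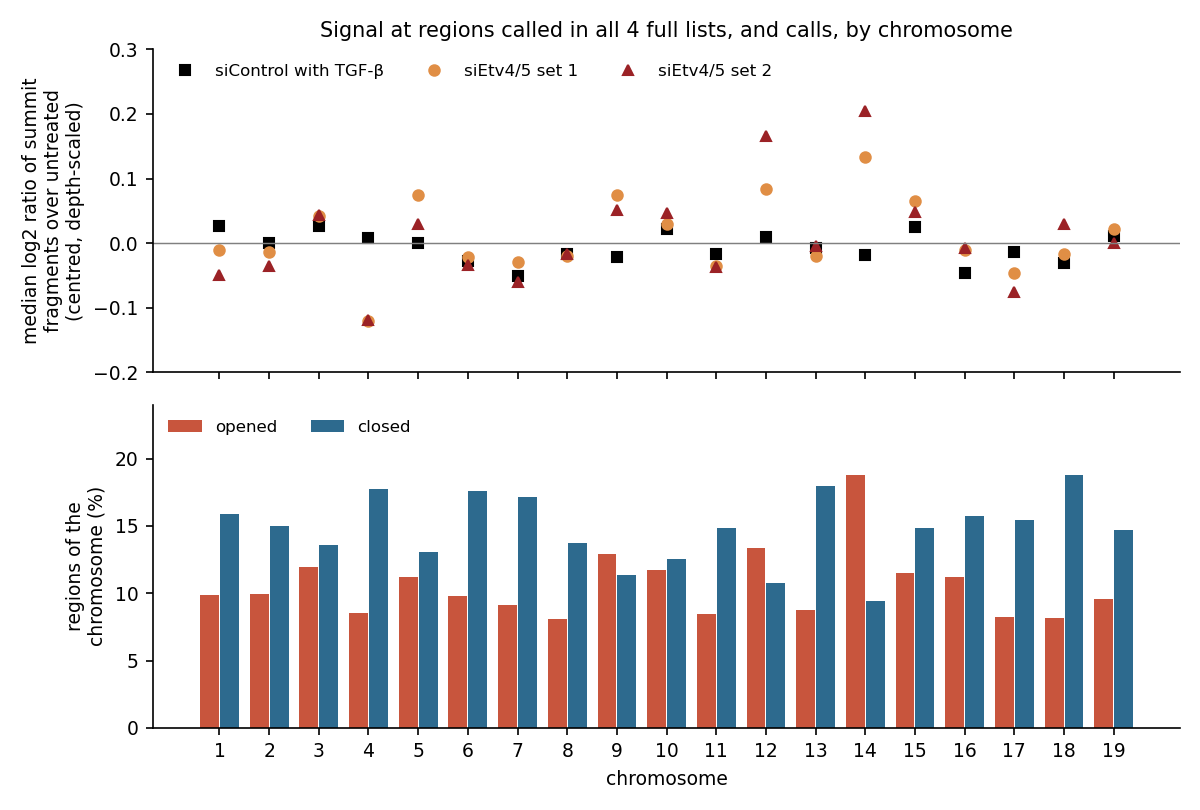
Upper panel: for each autosome, the median log2 ratio over untreated siControl of fragments at the summit, scaled to depth and centred on the median of all regions, at regions called in all 4 full lists, for TGF-β siControl (squares), siEtv4/5 set 1 (circles) and set 2 (triangles). Lower panel: the share of each autosome's regions that was opened or closed. Chromosome 14 stands at 0.13 with set 1 and 0.20 with set 2 and at -0.02 in TGF-β siControl, and has the highest opened share, 18.8%.

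The first question was how far the opened and closed regions of the siEtv4/5 cells were also those of siControl cells with TGF-β. The siControl list with TGF-β, cut to the same length, held a peak at 1428 of the 2370 opened regions (60.3%, 58.3 to 62.2), and its full list at 2176 of them (91.8%). Of the 3426 closed regions, 2527 (73.8%, 72.3 to 75.2) had no peak in the equal-length list of TGF-β siControl, while its full list held 2109 of them (61.6%). In the equal-length list these shares were close to those of other regions called in the same number of lists. Regions called in untreated cells and in set 1 alone were held by the equal-length siControl list with TGF-β at 59.0%, and those called in untreated cells and in set 2 alone at 54.4%. Regions called in set 1 only were held at 31.9% and those in set 2 only at 26.1%, against 26.2% of the closed ones. The full TGF-β siControl list held 71.0% of the regions in set 1 only and 66.3% of those in set 2 only, above the 61.6% of the closed ones. The comparison of TGF-β siControl with untreated siControl shares the untreated list with that of the siEtv4/5 cells.

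**Figure D2:**
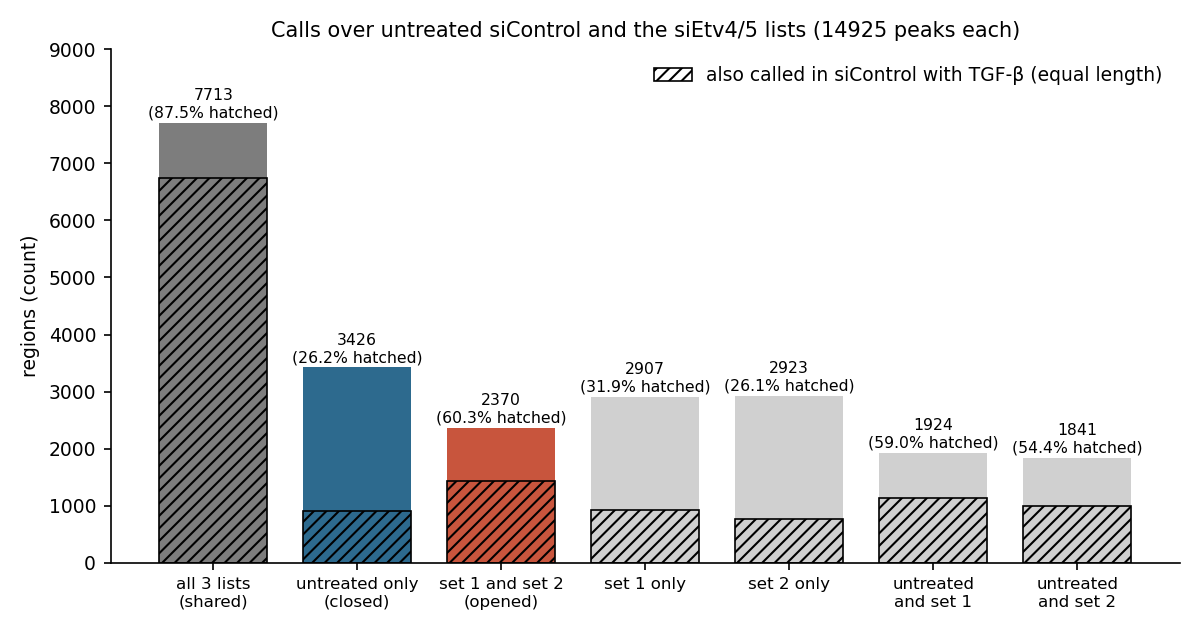
Regions by the lists that called them, among untreated siControl, siEtv4/5 set 1 and siEtv4/5 set 2, each cut to 14925 peaks; hatching is the part also called in TGF-β siControl at equal length. Opened regions (2370) were hatched at 60.3%, near the 59.0% and 54.4% of regions called in untreated cells and 1 siRNA set.

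The same question was then asked from the other side, where the siEtv4/5 lists took no part in choosing the regions. In siControl cells, 5134 regions were called with TGF-β and not without it (gained), and 5121 were called without it and not with it (lost). Both siEtv4/5 lists held 1430 of the gained regions (27.9%, 26.6 to 29.1) and 965 of the lost ones (18.8%, 17.8 to 19.9). Neither siEtv4/5 list held 2024 of the gained regions (39.4%, 38.1 to 40.8) and 2527 of the lost ones (49.3%, 48.0 to 50.7). Set 1 and not set 2 held 924 of the gained and 789 of the lost regions, and set 2 and not set 1 held 756 and 840. Under knockdown with TGF-β, regions gained in siControl cells were therefore called in both lists more often than regions lost in siControl cells. They were also called in neither less often, in both cases by more than the counting error. The gained and lost regions came from lists of unlike peak height. Kept peaks had a median of 29 summit fragments in TGF-β siControl and 24 in untreated siControl. The shares were not compared at equal height, so what part of the difference height makes was not tested.

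**Figure D3:**
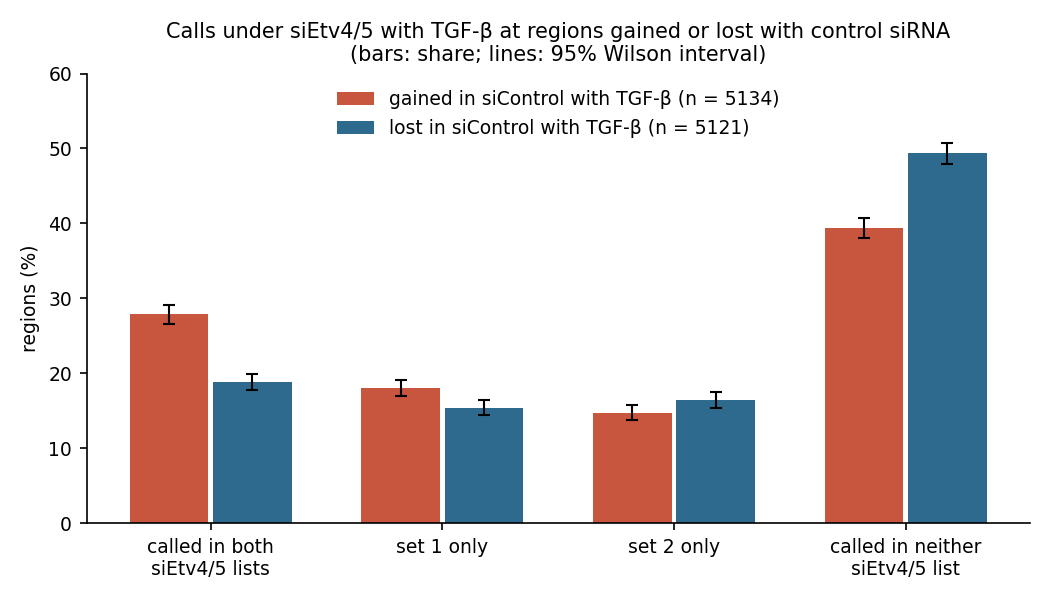
Share of the 5134 regions gained and the 5121 regions lost with TGF-β in siControl cells that were called in both siEtv4/5 lists, in 1 of them or in neither, with 95% Wilson intervals. Both lists held 27.9% of the gained and 18.8% of the lost regions.

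The height of the peaks was compared where all 4 full lists had one, which was possible at 1370 opened regions because their untreated peak lay below the length limit. There the median log2 ratio of fold enrichment (signal at the summit over the local background) to untreated was 0.40 in TGF-β siControl, 0.32 with set 1 and 0.05 with set 2. At 7597 shared regions the same ratios were 0.11, -0.05 and -0.32. The opened regions were chosen for an untreated peak below the limit, which raises all 3 ratios there, and for kept peaks in both siEtv4/5 lists, which raises those of set 1 and set 2 further, so nothing is read from these ratios being above those of shared regions. Closed regions had no set 2 peak of any height. At the 2109 closed regions with a peak in the full list of TGF-β siControl, a list that took no part in choosing them, the median log2 ratio was -0.07. The closed regions were chosen for a kept untreated peak, which lowers this ratio. The 1317 closed regions without a TGF-β siControl peak gave no ratio, so nothing is read from the -0.07. At the 981 closed regions with a set 1 peak below the length limit the median was -0.35. The choice of regions fixed its sign, so the 2 values are not compared.

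Many of the class members lay near the limit of the lists. At 1427 opened regions (60.2%) the full untreated list held a weaker peak, whose median summit held 17 fragments, and 943 (39.8%) had no untreated peak at all. Of these 943, 806 (85.5%) had a peak in the full list of TGF-β siControl and 137 had none, so these 137 were called in both siEtv4/5 lists and in neither siControl list. Signal below the peak caller's threshold was not analysed here. Of the closed regions, 981 had a weaker set 1 peak, and 2445 (71.4%) had none in either full siEtv4/5 list. Of these 2445, 1142 (46.7%, 44.7 to 48.7) were also absent from the full list of TGF-β siControl, and 1303 were present there.

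Among the 10 strongest opened regions without any untreated peak, the intronic region near Ezh1 had a fold enrichment of 12.5 with set 1, 11.96 with set 2 and 11.999 in TGF-β siControl, with 29, 28 and 26 fragments. The region near Zfp362 reached 13.1, 10.9 and 11.9 in the same order. The promoter of Nr1h2, which encodes the oxysterol receptor LXRβ, was opened with 10.4, 10.9 and 13.3. The region at -12.1 kb from the start of Cfl2, which encodes the actin-severing protein cofilin 2, reached 12.1 with set 1 and 10.3 with set 2, and its 8.25 in TGF-β siControl lay below the length limit. The regions of Steap3, a metalloreductase gene, Zfp606, Sec14l5 and Rac3, a small GTPase gene, had 9.66 or more with either set and likewise a siControl peak with TGF-β below the limit. The region at -18.9 kb from the start of Ktn1 on chromosome 14 had 9.68 with set 1 and 9.66 with set 2 and no peak in either siControl list. Further opened promoters were those of Arhgef40, the ribosomal protein gene Rps29 and Cfap46. Cfl2 and Rps29 lie on chromosome 12, and Arhgef40, like Ktn1, on chromosome 14. On both chromosomes the siEtv4/5 libraries had higher signal than the untreated one.

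The 10 strongest closed regions without any siEtv4/5 peak reached 13.2 to 14.7 in the untreated list, with 26 to 32 fragments. Those near Zfp385b (14.7), Ankrd44 (13.9), Eps8l2 (13.7) and 2010111I01Rik (13.2) also had no peak in TGF-β siControl. The intronic region 11.4 kb downstream of the start of Evpl, which encodes envoplakin, a plakin of the cornified envelope and desmosomes, had 13.7 untreated, and 10.2 in TGF-β siControl. The promoters of Eif2b1, a translation initiation factor gene, of Reep4, and of Rab7, a late endosomal GTPase gene, were closed as well. They had 13.43, 13.3 and 13.2 untreated, no peak with either siEtv4/5 set, and 9.34, 10.2 and 11.4 in TGF-β siControl. Closed promoters also included those of Spata2, Pgghg, Hlcs and Aqr, whose siControl peaks with TGF-β were kept at 9.44 to 12.5. Each of these 7 promoters had a kept peak with TGF-β and the control siRNA, as had 899 of all 3426 closed regions (26.2%). They were chosen for a high untreated peak, so they are not set against that share. Their lack of a peak with either siEtv4/5 set was fixed by the choice of regions. The promoter of Gm15517 had 12.7 untreated and 8.81 below the length limit in TGF-β siControl.

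At regions that stayed called, few changes of height passed 1.5-fold with both sets. After centring, 7 of the 7713 shared regions (0.0908%) were higher and 17 (0.22%) lower by that amount. All 6 of the higher ones that were called in the equal-length siControl list with TGF-β were on the same side there, as were all 16 of the lower ones, and both ratios have the untreated peak in common. The region at the start of Vps35l, a retriever complex gene, had a fold enrichment of 8.83 untreated, 16.1 with set 1, 11.3 with set 2 and 13.97 in TGF-β siControl. The promoter of Gps2, a subunit of the nuclear receptor corepressor complex, had 9.46, 14.8, 12.7 and 12.2. B230307C23Rik, Ptprj and Gpr84 were the nearest genes of the others among the first 5. On the lower side, the promoter of Uqcr11, a subunit gene of respiratory complex III, had 17.0 untreated, 8.49 with set 1, 8.40 with set 2 and 13.9 in TGF-β siControl. The promoter of Mtr, the methionine synthase gene, had 14.7, 9.22, 6.43 and 12.7, and regions at Cbfa2t2, Plgrkt and Polr2f followed. Uncentred, 0 were higher and 98 lower. By fragments scaled to depth and centred, 64 (0.83%) were higher and 47 (0.609%) lower, so neither the counts nor which direction had more held across scalings.

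Opened and closed regions were less often at promoters than shared ones. A start site lay within 2 kb of 26.6% of the opened regions (24.9 to 28.4), 32.6% of the closed (31.0 to 34.2), 53.0% of the shared and 38.8% of all 23104 regions. Regions in set 1 only and set 2 only had 26.2% and 25.8%, near the opened share. Introns held 46.7% of the opened and 43.9% of the closed regions, and 10.3% and 8.38% lay over 50 kb from any start site.

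The motifs separated the closed from the opened regions. Among regions over 2 kb from a start site, an AP-1 match within 500 bp was found in 1185 of 1739 opened regions (68.1%, 65.9 to 70.3) and in 777 of 2310 closed ones (33.6%, 31.7 to 35.6). The share was 68.1% in shared regions and 55.8% in all distal regions, and in windows of the same length 5 kb to either side of the opened and closed regions it was 13.3% to 15.41%. Opened regions thus carried AP-1 as often as shared ones, and closed regions much less often. At promoters the match was present in 28.1% of the opened (24.7 to 31.7), 12.6% of the closed and 13.3% of the shared regions.

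The difference was also there at equal summit height. With 15 to 19 fragments at the summit, AP-1 was found in 26.0% of the closed regions and in 60.8% of the shared ones by their untreated peak, and with 25 to 29 fragments in 46.4% and 69.3%. Opened regions had 64.2% and 72.8% in these bands of their set 1 peak, where shared regions had 50.0% and 71.7%.

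Regions called in a single list out of 4 gave the comparison with the number of calls held equal. AP-1 was found in 30.8% (28.7 to 32.9) of the 1775 distal regions called in untreated siControl alone. It was found in 59.6% of those called in TGF-β siControl alone, 51.1% with set 1 alone and 49.6% with set 2 alone. All 3 libraries with TGF-β, with or without the knockdown, thus had AP-1 at a higher share of their own regions than the untreated library. Both sets lay below TGF-β siControl. Peak height was not held equal among these single-list regions. The weakest kept peak differed between the lists, and AP-1 shares rose with height in closed and shared regions. Whether height makes these differences was not tested. Among regions called in all 3 lists with TGF-β and not untreated the share was 72.2%. Opened regions that the equal-length siControl list with TGF-β held had AP-1 in 72.1%, and those it did not hold in 61.7% (58.0 to 65.4). Without chromosomes 4, 12 and 14 the AP-1 shares were 67.8% in opened and 33.2% in closed regions.

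Over all peak heights, CTCF matches were distributed the other way. They were found in 418 of 2310 distal closed regions (18.1%, 16.6 to 19.7), in 8.40% of the opened (7.18 to 9.79), in 10.4% of the shared and in 12.2% of all distal regions, and in 4.66% to 4.95% of windows 5 kb away from opened and closed regions. Regions called in untreated siControl alone had CTCF in 19.2% (17.4 to 21.1), against 9.69% in TGF-β siControl alone, 12.5% with set 1 alone and 11.5% with set 2 alone. The share depended on peak height. With 15 to 19 fragments it was 21.3% in closed regions, and 16.0% in shared regions by their untreated peak but 22.8% by their set 1 peak. With 25 to 29 fragments it was 13.6% in closed regions (10.1 to 17.9), 5.70% in opened ones and 9.73% in shared ones by their untreated peak.

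Matches to the ETS sequence CCGGAA, of the family to which Etv4 and Etv5 belong, hardly separated the distal classes. ETS sites without CCGGAA were not searched. The CCGGAA matches were found in 8.17% of distal opened regions (6.97 to 9.55), 7.32% of closed (6.32 to 8.45) and 9.03% of shared ones, against 8.06% of all distal regions. The longer form ACCGGAAGT was present in 6 distal opened and 3 distal closed regions. At promoters, where ETS matches are common, the shares were 29.6% in opened, 30.6% in closed and 43.4% in shared regions. RUNX matches (TGTGGTT) were found in 18.9% of opened (17.1 to 20.8), 14.42% of closed (13.0 to 15.9) and 18.1% of shared distal regions. TEAD matches (GGAATG) were found in 36.2%, 28.2% and 36.8%. Opened and closed regions were also banded by summit fragments of their set 1 and untreated peaks. With 15 to 19 fragments the shares were 16.8% and 15.2% for RUNX and 26.8% and 26.6% for TEAD. With 25 to 29 fragments they were 20.5% and 15.6% for RUNX and 38.4% and 24.7% for TEAD. The E-box bound by ZEB and SNAI repressors (CAGGTG) was more frequent in closed than in opened regions, 33.4% (31.5 to 35.3) against 27.4% (25.3 to 29.5). Shared regions had 31.1%. With 15 to 19 fragments the order was the other way, 32.1% in closed and 35.2% in opened regions, with overlapping intervals. With 25 to 29 fragments these shares were 38.6% and 26.6%. SMAD matches (GTCTAGAC or CAGACAG) were found in 332 of 1739 opened and 378 of 2310 closed regions, with overlapping intervals of the share. In 200 bp windows the SMAD share was 9.78% (8.47 to 11.3) in opened and 6.54% (5.60 to 7.62) in closed regions, which do not overlap. GRHL matches (AACCNGTT) had 3.28% and 4.03% in 500 bp, with overlapping intervals, and 1.09% (0.701 to 1.70) and 2.34% (1.80 to 3.04) in 200 bp, which do not overlap. The intervals of C/EBP (TTGCNNAA) and FOX (TGTTTAC) matches overlapped in both windows.

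**Figure D4:**
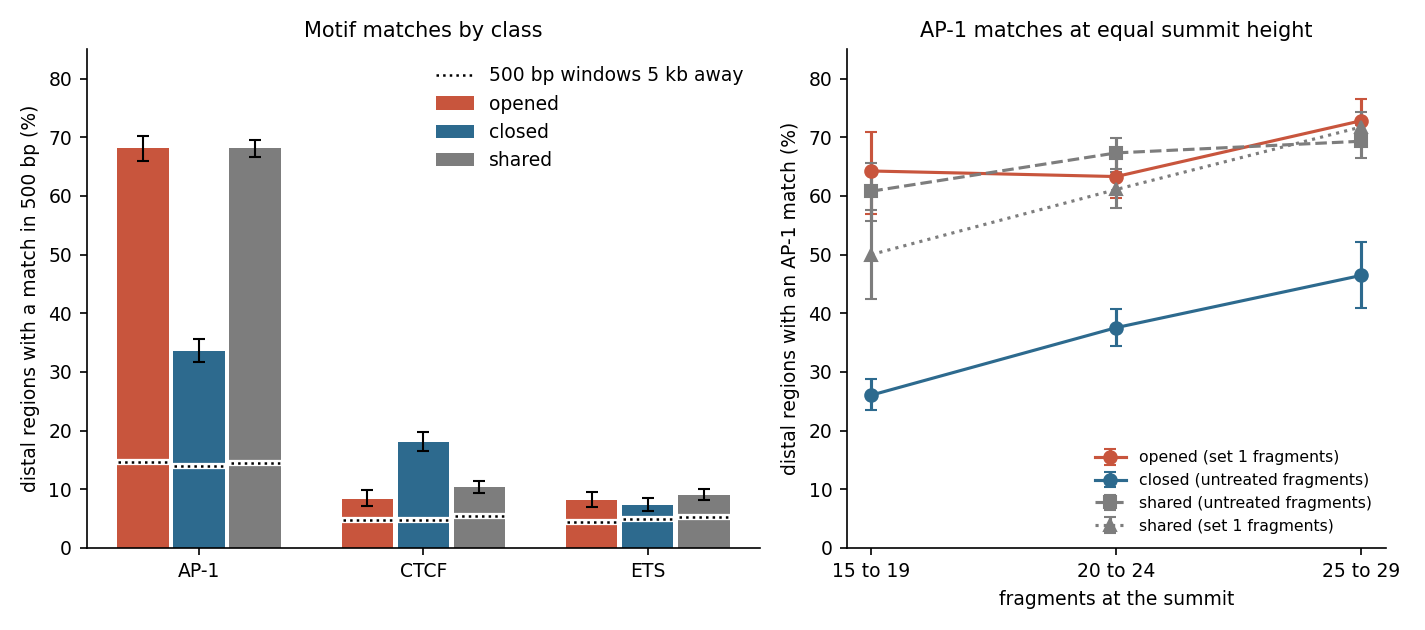
Left: share of distal opened, closed and shared regions with an AP-1, CTCF or ETS match in 500 bp, with 95% Wilson intervals; dotted lines are windows of the same length 5 kb away. Right: AP-1 share in bands of fragments at the summit, taken from the list named in the legend. AP-1 stood at 68.1% in opened, 33.6% in closed and 68.1% in shared regions, and closed regions were lowest in each band.

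Genes were then grouped by function. Over all 21924 protein-coding genes, 1984 (9.05%) had an opened and 3185 (14.5%) a closed region in the gene or within 10 kb, and over the 12584 genes with any region these shares were 15.8% and 25.3%. Of 26 mesenchymal and matrix genes, 18 had any region, 7 had an opened one and 4 a closed one. The promoter of Vim, which encodes the mesenchymal filament protein vimentin, was opened at chr2:13573504-13573715 with a fold enrichment of 8.30 with set 1 and 6.11 with set 2. It had 32 and 22 fragments, no peak in the untreated list, and 6.02 in TGF-β siControl below the length limit. Col1a2, a type I collagen gene, had 8.13, 7.24 and 9.48 in the same order in its 5′ part, and Itgb3, an integrin gene, had 9.03, 6.85 and 10.2 in an intron. Thbs1, which encodes the TGF-β activator thrombospondin 1, had 6.70, 5.41 and 5.85, again without an untreated peak. Its 5.85 in TGF-β siControl lay below the length limit. Itga5, Cd44 and S100a4 were the other members with an opened region, and Acta2, Sparc, Itga5 and Itgav those with a closed one. Acta2, the smooth muscle actin gene, had 8.42 and 7.95 untreated at its 2 closed regions, and neither siEtv4/5 peak.

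Of 12 EMT transcription factor genes, 1 had an opened and 3 a closed region. The promoter of Snai2, which encodes the repressor Slug, was called in the untreated list at 7.04 with 22 fragments and in none of the 3 lists with TGF-β. Sox4 and Sox9 were the other closed ones and Tcf4 the opened one.

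Of 28 epithelial junction genes, 8 had an opened and 6 a closed region. Cdh1, which encodes E-cadherin, had its closed regions in introns. The first, at chr8:106611060-106611211, 7.79 kb from the start, had an untreated fold enrichment of 7.36 with 27 fragments and no peak in any library with TGF-β. The second, at 16.45 kb, had 6.96 untreated and 9.36 in TGF-β siControl, a set 1 peak of 5.60 below the length limit and none with set 2. The Cdh1 promoter was called untreated at 8.10 and with set 2 at 7.39, and neither in TGF-β siControl nor with set 1. Jup, the plakoglobin gene, was closed at a region with 12.2 untreated and 12.8 in TGF-β siControl, and Ocln, Tjp1, Marveld3 and Lama3 had a closed region too. Genes with an opened region included Cldn3, Tjp1, Pkp2, Crb3, Marveld3 and Itgb4. The opened region of Tjp1, the gene of the tight junction protein ZO-1, had 10.1 with set 1, 7.06 with set 2 and 10.8 in TGF-β siControl against 6.84 untreated. Junction genes thus had both kinds.

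Of 27 epithelial regulators and keratins, 3 had an opened and 4 a closed region, at shares near those of all genes. The promoter of Grhl2, which encodes a regulator of epithelial genes, was called untreated at 7.33 with 25 fragments and in no list with TGF-β, while an intronic region 31.5 kb into the gene was opened with 6.77, 6.46 and 8.32. The promoter of Ovol1, an epithelial repressor of EMT genes, had 9.67 untreated, 7.03 in the full list of TGF-β siControl and no siEtv4/5 peak. A region at -1.31 kb from the start of Esrp2, an epithelial splicing regulator gene, had 7.34 untreated and 7.83 in TGF-β siControl and no siEtv4/5 peak. Elf5 was closed, and Spint2 and Krt14 were opened.

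Of 33 matched direct targets and feedback genes of TGF-β, 9 had an opened and 11 a closed region, and 4 had both. The promoter of the latent TGF-β binding protein gene Ltbp1 was opened at 9.03 with set 1 and 7.39 with set 2, and had no peak in either siControl list. The promoter of Ccn2, a matrix signalling protein gene, had 6.97 and 5.55, against 4.97 untreated and 5.17 in TGF-β siControl, both below the length limit. Id3, an inhibitor of DNA binding, was opened in an exon 0.213 kb from its start at 7.71 and 5.68 with no untreated peak. It had 4.87 in TGF-β siControl, below the length limit. Smad7, the inhibitory Smad gene, Smurf1, Ltbp2, Tgfbr2, Id2 and Smad3 also had an opened region. The promoter of Tgfbr1, the type I receptor gene, was closed with 6.46 untreated, 6.71 with set 1 below the length limit, no set 2 peak, and 7.77 in TGF-β siControl. Closed regions also stood at Ski, Smurf1, Smurf2, Pmepa1, Tgfbi, Ltbp1, Ltbp2, Id1, Cdkn1a and Smad3.

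Of 23 ETS and Ras-ERK feedback genes, 7 had an opened and 7 a closed region. Ets1 had 3 opened regions. The one at -6.54 kb from the start, chr9:32629533-32629833, had 8.30 with set 1, 7.40 with set 2 and no untreated peak. Its 6.11 in TGF-β siControl lay below the length limit. A region 27.0 kb downstream of the start of Ets2, at chr16:95728938-95729204, had 11.2 with set 1, 9.19 with set 2 and 11.5 in TGF-β siControl, and none untreated. The promoter of Dusp6, an ERK phosphatase gene and ERK target, had 7.36, 6.07 and 7.87, against 6.24 untreated. Dusp5, Spry1, Elk3 and Etv1 were the other opened members. Etv4 and Etv5, the genes the siRNAs were made against, each had 1 closed region in the gene or within 10 kb. These lay 21.5 kb and 10.6 kb downstream of the start. At Etv4 it had 11.97 untreated with 24 fragments and 8.14 in the full list of TGF-β siControl, and at Etv5 it had 7.19 and 7.55, and neither had a siEtv4/5 peak. Etv6, Ets2, Elf1, Spry1 and Egr1 were also closed.

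Of 13 RUNX, TEAD and YAP genes, 3 had an opened and 5 a closed region, and Runx1 had 2 opened ones, with no untreated peak at either. The one at -1.75 kb from the start had 6.77 with set 1, 6.03 with set 2 and 6.20 in TGF-β siControl, the last below the length limit. Lats2 and Wwtr1 also had an opened region, and Runx2, Cbfb, Tead1, Wwtr1 and Amotl2 a closed one. Of 21 matrix proteases and inhibitors, 3 had an opened region (Mmp11, Adam12 and Timp3) and 4 a closed one (Mmp2, Adam12, Adamts1 and Timp2). Of 12 AP-1 subunit genes, none had an opened region, and Fosb and Jund had a closed one. Of 5 control loci, 2 had a closed region and none an opened one. These were Tbp and Hprt, both housekeeping genes, with 7.58 and 8.27 untreated and no siEtv4/5 peak. In TGF-β siControl Tbp had 6.90 below the length limit and Hprt had none.

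**Figure D5:**
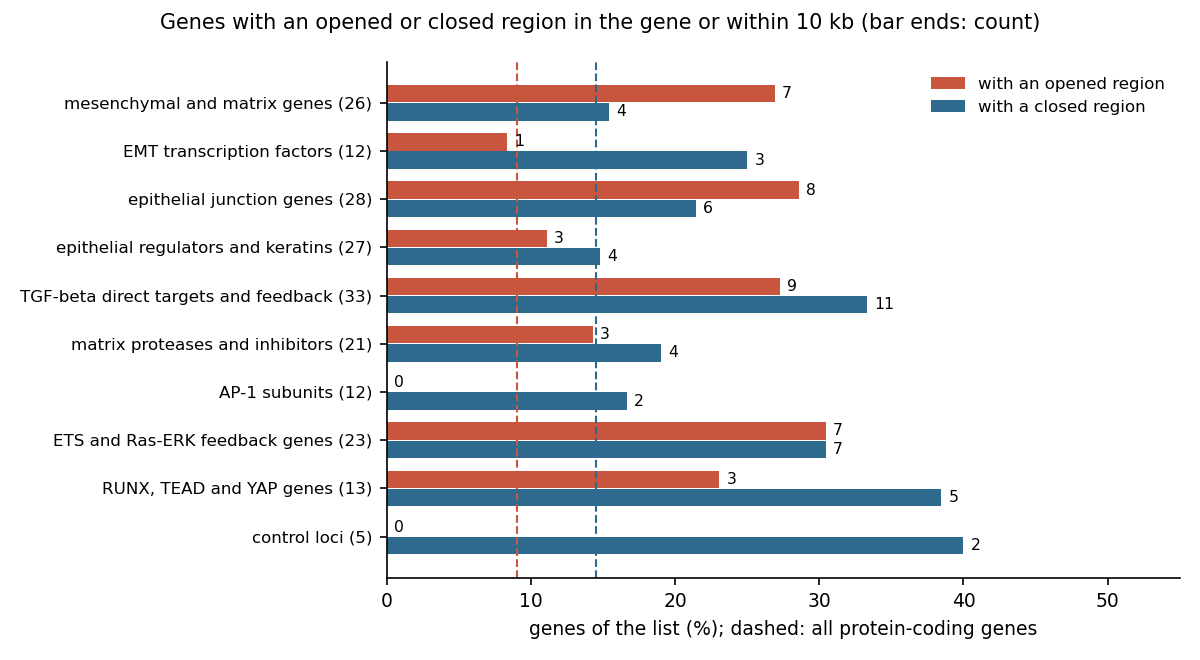
For each gene list (number of genes matched in parentheses), the share of genes with an opened or a closed region in the gene or within 10 kb; numbers at the bar ends are counts of genes and dashed lines are the shares of all protein-coding genes, 9.05% and 14.5%. Mesenchymal, junction, TGF-β and ETS lists had opened shares of 26.9% to 30.4%. Closed shares were also above the dashed line in the junction (21.4%), TGF-β (33.3%) and ETS (30.4%) lists, and near it in the mesenchymal list. The bars and the dashed lines both include genes without any region. Over all genes with any region the shares were 15.8% opened and 25.3% closed, a different base from that of the bars. The lists were not matched to all genes for number of regions. The 5 control loci had 2 genes with a closed region.

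At the remaining loci that the study examined, the promoter of Gapdh was shared, with a fold enrichment of 8.90 untreated, 7.44 with set 1, 7.88 with set 2 and 8.68 in TGF-β siControl. The promoter of Fn1, the fibronectin gene, had a peak in each of the 4 full lists, with 8.38, 6.12, 5.49 and 8.49 in the same order. At Mmp13, a collagenase gene, a peak at -8.97 kb from the start was found in TGF-β siControl alone, at 5.32 with 22 fragments, and a peak at the start in untreated siControl alone, at 5.77 with 14 fragments. Both lay below the length limit, and neither siEtv4/5 list had a peak within 10 kb of the gene. Cdh2, the N-cadherin gene, had no peak in the untreated or the set 2 list, 2 in TGF-β siControl and 1 with set 1, all below the length limit.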

How the data were processed

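FAIRE DNA of EpRas cells was sequenced on an Ion Proton, and the authors trimmed reads to 36 bp, aligned them to mm10 with Bowtie and called peaks with MACS2 (version 2.1.0 in the submitters' processing notes). Each deposited list gives per peak a score, a fold enrichment ratio, −log10 p-value and −log10 q-value. The study's methods describe 2 biological replicates of FAIRE-seq. There is 1 list for each group here, and whether it was called on both replicates combined is not given in the sources used here.

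Lists were cut to 14925 peaks by −log10 q-value and overlapping peaks (1 bp) were merged into regions. Fragments at the summit and the local background were solved from the fold enrichment (pseudocount 1) and −log10 p-value, and were whole within 0.05 in 100% of peaks. Depth was estimated from the lowest background and an effective genome of 1.87 Gb, and was 15.3 to 20.7 M reads. Reads copied by PCR are not independent molecules. Start sites, exons and promoters (within 2 kb) were from GENCODE vM21, motifs were searched in 500 bp around region centres of GRCm38, and genes took regions within 10 kb. Changes of height at shared regions were centred on their median and counted past 1.5-fold in both sets.

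Named regions were the strongest by the weaker of both siEtv4/5 peaks (opened) or by the untreated peak (closed), with none in the other full list (10 of each class, and up to 8 at promoters), the 5 largest shared changes in each direction, members of the gene lists, and the loci the study examined. Regions on chromosome 18 and the mitochondrial chromosome were counted but not named by position. Some members of the gene lists were counted but are not reported here by name. The regions and gene lists were chosen with earlier results of these data known. Cyr61 and Ctgf were not matched by symbol. Python 3.11.15, scipy 1.17.1 and pysam 0.24.0 were used, and the scripts were tested on simulated data.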

Additional observations from a re-analysis of the deposited data

How the results depend on the processing

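There was 1 list for each group, so no setting could be set against replicate spread. No paired analysis was possible because each group had 1 list and the lists carry no replicate numbers. With the full deposited lists there were 5308 closed regions, promoters held 22.2% of opened and 28.6% of closed regions, distal AP-1 shares were 62.9% and 35.6%, siControl with TGF-β held 81.9% of opened regions, and it lacked 52.1% of closed ones. With the top 7500 peaks of each list there were 1204 opened and 2180 closed regions, with promoter shares of 36.7% and 45.1%, AP-1 shares of 71.1% and 45.4%, and 52.7% of opened regions in siControl with TGF-β. With lists cut by fold enrichment, 30.4% of closed regions were at promoters, siControl with TGF-β held 56.4% of opened and lacked 71.4% of closed regions. With absence judged on the full lists there were 943 opened regions, with promoter shares of 23.5% and 30.8% and AP-1 shares of 65.6% and 28.1%. The equal-length siControl list with TGF-β then held 47.9% of opened regions, and its full list held 85.5%. In this setting its full list lacked 46.7% of closed regions, so that share and the 47.9% come from different lists. Leaving out 1 siEtv4/5 list gave 5277 to 5306 opened and 5268 to 5360 closed regions, 35.97% to 36.5% of closed regions at promoters, AP-1 in 59.7% to 61.3% of opened and 39.1% to 39.5% of closed regions, 41.4% to 44.6% of opened regions held and 61.9% to 63.9% of closed regions lacked by siControl with TGF-β. These counts grow because 1 list in place of 2 decides a call. In a 200 bp window AP-1 was in 61.4% of opened and 28.0% of closed regions and ETS in 3.85% and 3.51%. Within 1 kb of a start site lay 21.6% of opened and 27.8% of closed regions. Shared regions past the limit were 0% higher and 1.27% lower without centring, 0.83% and 0.609% by fragments scaled to depth, and 0% and 0% at 2-fold. The AP-1 share was higher in opened than in closed regions with the full lists, the top 7500 peaks, the cut by fold enrichment, absence judged on the full lists, either siEtv4/5 list left out and the 200 bp window. An overlap of 50% of the shorter peak, and leaving out the mitochondrial chromosome or chromosomes 4, 12 and 14, which were chosen after seeing the data, each left the 10 results within counting error or within 1.5 times. For the other settings the cause was not tested.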

Other observations

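Regions that untreated siControl and a single siEtv4/5 list had in common lay at promoters in 43.5% (set 1) and 42.3% (set 2), above the 26.6% of opened and 32.6% of closed regions. Closed regions that siControl with TGF-β held in its equal-length list lay at promoters in 40.5% (37.3 to 43.7) and had AP-1 in 43.2% of distal members (39.0 to 47.4). Those it did not hold lay at promoters in 29.8% (28.0 to 31.6) and had AP-1 in 30.8% (28.7 to 32.9). The median GC content of distal windows was 46.2% in closed, 46.6% in opened and 47.6% in shared regions.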
